A study of Mus musculus with 2 samples.

Results

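The cytosolic ribosomal protein genes encode the protein components of the large and the small subunit of the cytoplasmic ribosome. They were chosen by symbol, as the Rpl and Rps genes followed by a digit together with Rplp0, Rplp1, Rplp2, Rpsa and Fau, leaving out symbols that carry the pseudogene suffix, the ribosomal S6 kinases, Rps19bp1 and Rpl7l1. This gave 88 members of 15046 genes in the count table, 51 of the large and 37 of the small subunit. The rule uses symbols and no measured value, though it was set with earlier results of these data known. Single-cell RNA was measured in neural stem/progenitor cells (NSPCs) from the subventricular zone of adult C57/Bl6 male mice aged 6 to 8 weeks, which had been passaged at least 5 times as neurospheres. They grew in N2 medium with the mitogens EGF and FGF-2. All cells came from 1 line made stable for a retroviral reporter, PLIN2-GFP, in which the lipid droplet coat protein PLIN2 carries GFP, and no group received a further treatment. Cells in the highest 25% and the lowest 25% of GFP signal (PLIN2-GFP high and low) were sorted alive into 2 plates of 384 wells, and the comparison asks whether the ribosomal protein mRNAs differ between cells with many and with few lipid droplets.

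Plate 1 held 84 high and 95 low cells and plate 2 held 53 high and 72 low cells after the filters of the study. The 2 plates were the only replicates, and both came from the same line. With the plate as a block, the p-values below rest on how far a difference varied between plates of 1 line. Their error also borrows from the spread across genes. The sums over the cells held between 778022 and 1029020 unique molecular identifiers (UMIs, counts of distinct captured transcripts), 1 sum for each plate and category. A cell had between 1170 and 34630 UMIs, and a share of UMIs is relative to the other mRNA of that cell. High cells were deeper than low cells on both plates, with a median of 11709 against 7856 UMIs on plate 1 and of 14729 against 11955 on plate 2. Each of the 16 rows of wells held 1 category only, so category and position cannot be told apart. The NSPC markers Nes, Sox2, Fabp7, Vim and Hes1 summed to between 6294 and 6404 CPM (counts scaled to a common total of 1000000) in the 4 sums. Most of this came from Fabp7 and Vim, so the total says little about the other markers of the list. Of the oligodendrocyte lineage, Olig1 was at between 2172 and 2532 CPM and Olig2 at between 1032 and 1271 CPM. These 2 ranges are TMM-scaled, as in the fit, and are not on the scale of the marker total above. Sox10, Pdgfra, Mbp and the 4 microglial markers had no row in the table.

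A ribosome needs its proteins in fixed proportions, and their mRNAs are among the most abundant of a growing cell. Their transcripts begin with a 5′ terminal oligopyrimidine (TOP) tract, an uninterrupted run of C and T bases at the start site, through which mTOR and the RNA-binding protein LARP1 control their translation together. Assembly of the subunits takes place in the nucleolus and depends on a separate group of biogenesis factors, such as nucleolin and the box C/D proteins Nop56 and Nop58.

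The start sites are shown because the TOP tract is the feature in sequence that these genes are known to share. RefSeq promoters of build GRCm38.p6 were matched for 65 of the 88 members. A run of at least 6 bases made only of C or T, with at least 1 base within 5 bases of the annotated start, was present on the transcribed strand in 35 of the 65 members (53.8%), against 6227 of 27025 genes (23%). The same run read on the other strand, a stretch of A and G, was present in 12.3% of the members and in 24.8% of all genes. Counted over start sites, the pyrimidine run was present in 47.4% of 76 member starts and in 20.2% of 32851 starts of all genes. Each line below gives 10 bases before and 20 bases after the annotated start, 5′ to 3′ on the strand of the gene, and capitals mark the pyrimidine run.
Fau: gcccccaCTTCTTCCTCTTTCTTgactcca
Rps24, first start: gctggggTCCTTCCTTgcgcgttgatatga
Rps24, second start: cgccgtagccatcatggtgagtctcctcgg
Rps26: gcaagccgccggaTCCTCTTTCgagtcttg
Rps23: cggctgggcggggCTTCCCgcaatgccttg
Rps6: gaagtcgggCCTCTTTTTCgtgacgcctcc
Rps12: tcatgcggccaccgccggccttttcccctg
Rpl11: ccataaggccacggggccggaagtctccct
The windows lie at chr19:6057937-6057966 on the plus strand (Fau), chr14:24490668-24490697 and chr14:24490743-24490772 on the plus strand (Rps24), chr10:128626487-128626516 on the minus strand (Rps26) and chr13:90923112-90923141 on the plus strand (Rps23). Those of Rps6 (chr4:86857348-86857377), Rps12 (chr10:23787190-23787219) and Rpl11 (chr4:136053374-136053403) lie on the minus strand. The run was 16 bases long at Fau, 10 bases at Rps6 and 9 bases at the first start of Rps24 and at Rps26. At Rps12, Rpl11 and the second annotated start of Rps24 no such run came within 5 bases of the annotated start, although C and T bases follow each other further downstream in the windows of Rps12 and Rpl11. Rpl23a was not matched.

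Together the 88 members took 9.58% of all UMIs. Of these, 83 members had at least 100 UMIs over all cells, from 422 UMIs to 12539 UMIs for Rpl41, and all 83 passed the filter on low counts. Among the members with the most UMIs were Rpl41 (12539), Rps2 (11987), Rpsa (9511) and Rplp0 (9095), which are totals not corrected for transcript length. The other 5 members, Rps12l1, Rpl32l, Rps3a2, Rpl6l and Rps23rg1, had 1.84, 4.78, 10.9, 17.2 and 19 UMIs and were not tested. The first 4 of these are annotated as processed pseudogenes, and Rps23rg1 was not found in the annotation used here. Rpl37rt, annotated as a transcribed processed pseudogene, had 3695 UMIs, 64.9% of its values above 0 split, and stayed among the 83 tested (log2 fold change of high over low -0.15 ± 0.08, SE). Estimated counts can be split between genes that share sequence, and in 37 members more than 50% of the values above 0 were not whole numbers, among them Rps12, Rps23, Rps2 and Rpl23a. The median member had 34.3% of such values, against 12.9% over all genes, so the levels of these members are uncertain where a copy elsewhere in the genome takes part of the reads.

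PLIN2-GFP high cells gave a smaller share of their UMIs to ribosomal protein mRNAs than low cells on both plates, in both subunits. Large subunit genes made up 5.38% of the low sum and 5.02% of the high sum on plate 1, and 5.62% and 5.32% on plate 2. Small subunit genes made up 4.35% and 3.98% on plate 1, and 4.53% and 4.23% on plate 2. The high sum was the lower one on each plate, but the low sum of plate 1 lay close to the high sum of plate 2. The mean log2 ratio of the shares, high over low, was -0.09 ± 0.02 for the large and -0.11 ± 0.02 for the small subunit (SD, n = 2 plates). The shares of single cells overlapped widely between the categories. With each cell thinned to 5000 UMIs, which left out 45 shallower cells, the log2 ratios were -0.05 and -0.04. The share of mitochondrial transcripts also differed with category on plate 1, with a median of 13.97% in low and 11.9% in high cells, and little on plate 2, with 12.5% and 12.4%. Of the cell type markers, Vim was called lower in high cells (log2 fold change -0.22 ± 0.06, SE, edgeR adjusted p = 0.0405). The 4 astrocyte markers summed to 81.7 and 65.3 CPM in the low and 111.8 and 87.4 CPM in the high sums of plates 1 and 2. Of 5 neuroblast and neuron markers, Dcx and Tubb3 had no row. The other 3 summed to 553.5 and 567.4 CPM in the low and 539.6 and 422.2 CPM in the high sums. The part of these markers in the result was not tested. With mitochondrially encoded and ribosomal RNA genes left out of the total the log2 ratios were -0.12 and -0.14.

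**Figure D1:**
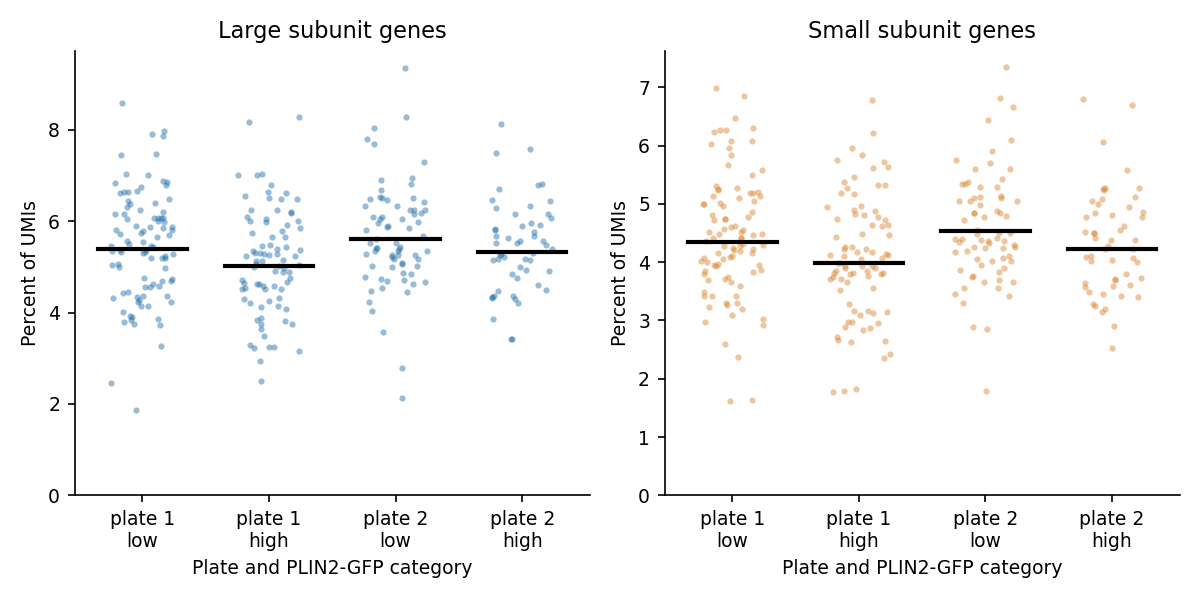
Percent of UMIs in large (left) and small (right) subunit genes by plate and PLIN2-GFP category. Each point is a cell and the black bar is the share of the summed UMIs, from 5.02% to 5.62% for the large and from 3.98% to 4.53% for the small subunit; on each plate the bar of the high cells lies below that of the low cells while the cells overlap.

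Both subunits moved almost in step. Across cells the large and the small subunit share had a Spearman correlation of 0.93 on plate 1 and 0.92 on plate 2, as a description, since both shares have the UMIs of the same cell as their denominator. The large subunit share had a correlation of -0.23 and -0.24 with the UMIs of the cell. The ratio of large to small subunit UMIs was 1.238 and 1.241 in the low sums of plates 1 and 2, and 1.260 and 1.256 in the high sums. The high sums were thus the higher ones by a margin of under 2%, and this ratio was not tested.

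Gene by gene, 82 of the 83 tested members had a negative log2 fold change (high over low), where 50.3% of all 8348 genes tested did. The median over the members was -0.17 (-0.19 on plate 1 and -0.13 on plate 2), beside -0.00 over all genes. Of the members 76 were lower on both plates, against 28.4% of all genes, and in 39 both high sums lay below both low sums, against 16.2% of all genes. At an unadjusted p under 0.05 (edgeR quasi-likelihood test with the plate as a block), 46 members were lower and 0 higher, against 5.82% and 5.17% of all genes. After Benjamini-Hochberg adjustment over all genes, at an adjusted p under 0.1, 7 members were called lower, against 1.26% of all genes, and 0 higher, against 0.886%. DESeq2 called 1 lower and 0 higher, and limma voom 13 lower and 0 higher. The large subunit held 2 of the called genes among 49 and the small subunit 5 among 34, and their medians were -0.16 and -0.19. The fold change of a single member was thus small, and most members did not pass the test one by one. Scaled by the library totals alone, which moved the median of all genes to 0.07, the median of the members was -0.10 and 77 were below 0.

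**Figure D2:**
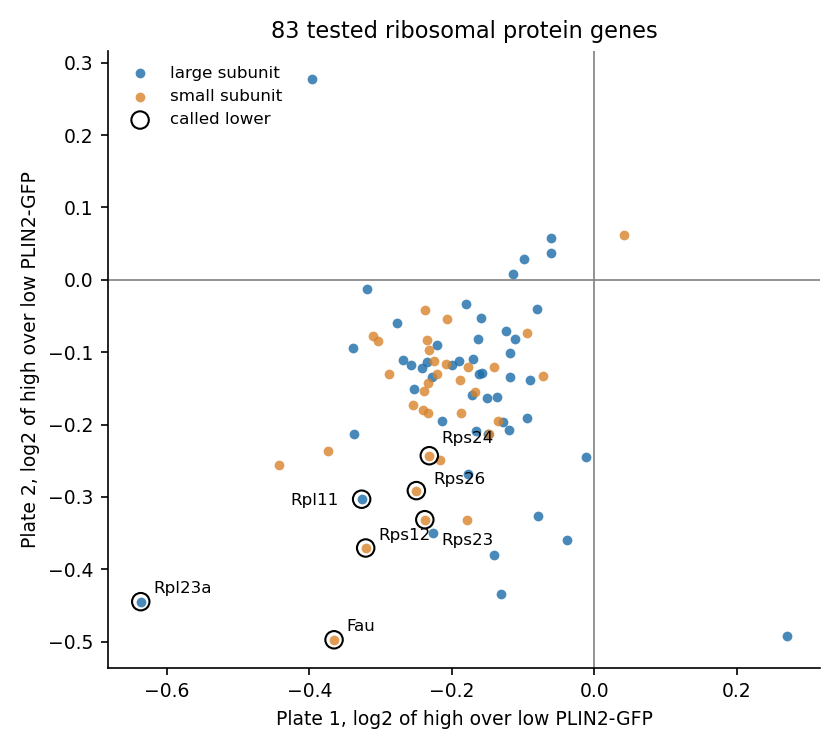
Log2 ratio of PLIN2-GFP high over low for the 83 tested members, plate 1 on the horizontal and plate 2 on the vertical axis, coloured by subunit; rings mark the 7 genes called lower. Most points, 76 of 83, lie below 0 on both plates, and only Rps27l lies above 0 on both.

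Rpl23a, a protein at the exit of the nascent chain tunnel where the signal recognition particle docks, had the largest fall. Its level was 943 and 925 CPM in the low sums of plates 1 and 2, and 606 and 679 CPM in the high sums (TMM-scaled CPM, here and below). The groups did not overlap, and the log2 fold change was -0.54 ± 0.09 (SE, edgeR adjusted p = 1.06e-06). Rpl23a lies on chromosome 11 at 78180932 to 78183584 (GRCm38, minus strand), and 76.98% of its values above 0 were not whole.

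Rps24, a protein of the small subunit that takes part in its maturation, was at 2649 and 2692 CPM in the low sums and at 2256 and 2274 CPM in the high sums. The plates agreed closely, and the log2 fold change was -0.24 ± 0.07 (SE, edgeR adjusted p = 0.0315). Only 4.61% of its values above 0 were not whole, against a median of 34.3% over the members. Whether its reads were shared with copies elsewhere in the genome was not measured.

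Fau encodes a fusion of a ubiquitin-like protein with the small subunit protein eS30. It fell from 381 and 320.6 CPM in the low sums to 295.6 and 226.4 CPM in the high sums, without overlap between the groups. Its log2 fold change was -0.43 ± 0.12 (SE, edgeR adjusted p = 0.0322). Rps12, at the head of the small subunit, was at 642 and 601 CPM in the low sums and at 513 and 464 CPM in the high sums. It had a log2 fold change of -0.35 ± 0.10 (SE, edgeR adjusted p = 0.0365), and 100% of its values above 0 were split.

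The other three called members had smaller margins. Rpl11, which with Rpl5 can bind MDM2 when ribosome assembly is disturbed, was at 760 and 593 CPM in the low sums and at 606 and 480 CPM in the high sums (log2 fold change -0.32 ± 0.10, SE, edgeR adjusted p = 0.0631). Rps26, which contacts the mRNA upstream of the start codon, was at 1179 and 885 CPM in low and 991 and 723 CPM in high (-0.27 ± 0.08, SE, edgeR adjusted p = 0.0778). For both genes the groups overlapped, because plate 2 was the lower plate in either category, and the fall was seen within each plate. Rps23, of the decoding centre, was at 871 and 800 CPM in low and 738 and 635 CPM in high, without overlap (-0.28 ± 0.09, SE, edgeR adjusted p = 0.0818). Each of the 7 genes lost its call when the plate was not used as a block and when any of the 4 sums was left out, fits that also have no block.

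**Figure D3:**
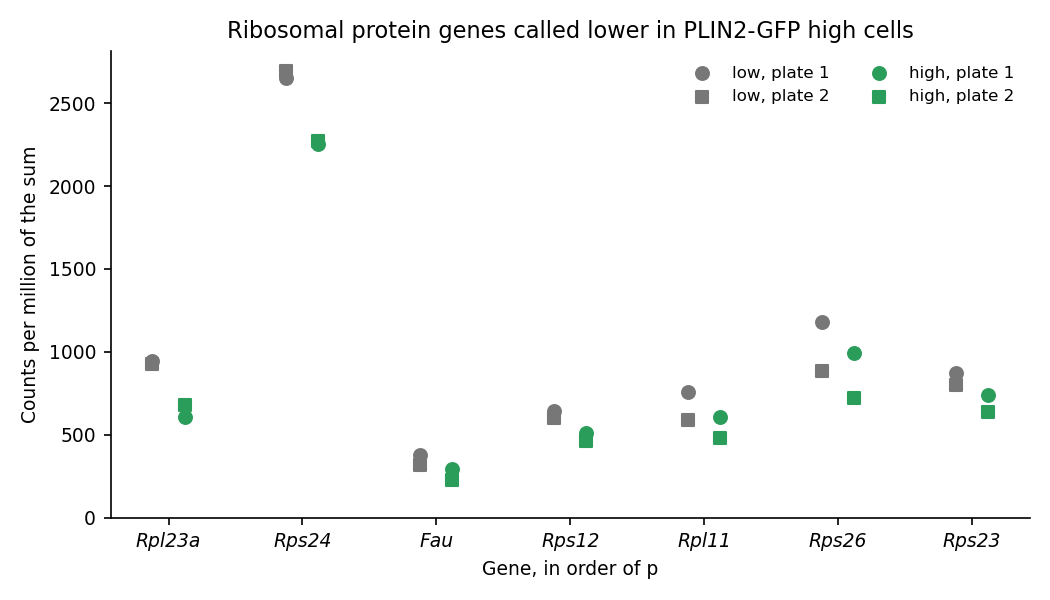
TMM-scaled CPM of the 7 members called lower, in order of p, in the 4 sums; grey marks low and green high cells, circles plate 1 and squares plate 2. Within each plate the green mark lies below the grey one for every gene, and for Rpl11 and Rps26 the plates differ by more than the categories.

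Several other members, named from a fixed list of ribosomal proteins, did not pass the test. Rps6, the substrate of the S6 kinases, was at 1844 and 2323 CPM in low and 1562 and 2088 CPM in high (-0.20 ± 0.07, SE, edgeR adjusted p = 0.171). Rpl41, the shortest ribosomal protein, was at 3759 and 4168 CPM in low and 3180 and 3831 CPM in high (-0.18 ± 0.06, SE, edgeR adjusted p = 0.126). Of the stalk proteins that recruit translation factors, Rplp0, Rplp1 and Rplp2 had log2 fold changes of -0.15 ± 0.07, -0.19 ± 0.08 and -0.16 ± 0.12 (SE), and Rpsa, also known as the laminin receptor, had -0.10 ± 0.06. Rpl5, the partner of Rpl11, was at 1050 and 1082 CPM in low and 969 and 1088 CPM in high, so the plates differed in sign (-0.05 ± 0.08, SE). The plates also differed in sign for Rpl36, Rpl17, Rpl36al, Rpl27a and Rpl27. Among these the plates were farthest apart for Rpl36, at -0.40 and 0.28 on the log2 scale, and Rpl17, at 0.27 and -0.49, which were chosen for mention after their values were seen and are among the members with low levels (Rpl36 at 217.04 and 148.1 CPM in low and 164.3 and 180.1 CPM in high).

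The duplicated members were compared with the genes they derive from. Rps27l, a p53-responsive relative of Rps27, was the single tested member with a positive value, at 660 and 747 CPM in low and 680 and 779 CPM in high (log2 fold change 0.05 ± 0.09, SE). Rps27 itself was at 235.5 and 205.2 CPM in low and 199.3 and 199.4 CPM in high (-0.15 ± 0.14, SE), and the retrogene copy Rps27rt had -0.20 ± 0.14. More than 50% of the values of Rps27 and Rps27rt were split, so these levels cannot be assigned to one copy. Rpl22l1 had a log2 fold change of -0.06 ± 0.09 and its parent Rpl22 of -0.17 ± 0.09 (SE). Rpl36al had -0.03 ± 0.10 and Rpl36a -0.11 ± 0.09, and Rpl7 had -0.15 ± 0.07. None of these members passed the test, and the differences between copies were not tested. Rpl3l, Rpl10l, Rpl39l and Rps4l had no row in the table. Outside the naming rule, the ribosome component Rack1 had -0.14 ± 0.09 (SE).

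Members with fewer split counts gave similar values. Among the 48 members left after removal of the paralogs and of the members with more than 50% of their values split, 48 had a negative log2 fold change, with a median of -0.18, and 4 were called lower, which were Rps24, Fau, Rpl11 and Rps26.

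The difference between categories was followed within the deposited cell cycle phases. In G1 cells the median over the members was -0.21 and 80 of 83 were below 0, in S cells -0.20 with 81 below 0, and in G2/M cells -0.09 with 65 below 0. In these sums, which held fewer cells, edgeR called 0, 3 and 2 members lower, against 0.132%, 0.569% and 0.717% of all genes. The part of cell number in these counts was not tested. At an unadjusted p under 0.05, 42, 21 and 10 members were lower, against 4.65%, 4.59% and 4.22% of all genes. Rpl23a had log2 fold changes of -0.53, -0.61 and -0.50 in G1, S and G2/M cells and was called in S and G2/M. Large subunit genes of G1 cells made up 5.30% of the low and 4.74% of the high sum on plate 1, and 5.59% and 5.16% on plate 2. In G2/M cells they made up 5.55% and 5.26% on plate 1, but 5.78% and 5.94% on plate 2, where the high sum was the higher one. A test of the interaction of category and phase over 12 sums (edgeR) called 0 of 83 members for S against G1 and 0 for G2/M against G1. At an unadjusted p under 0.05 it gave 2 members for each, or 2.41%, against 5.55% and 4.49% of all genes. The median interaction over the members was 0.01 for S, beside -0.02 over all genes, and 0.10 for G2/M, beside 0.00 over all genes. These medians were not tested.

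**Figure D4:**
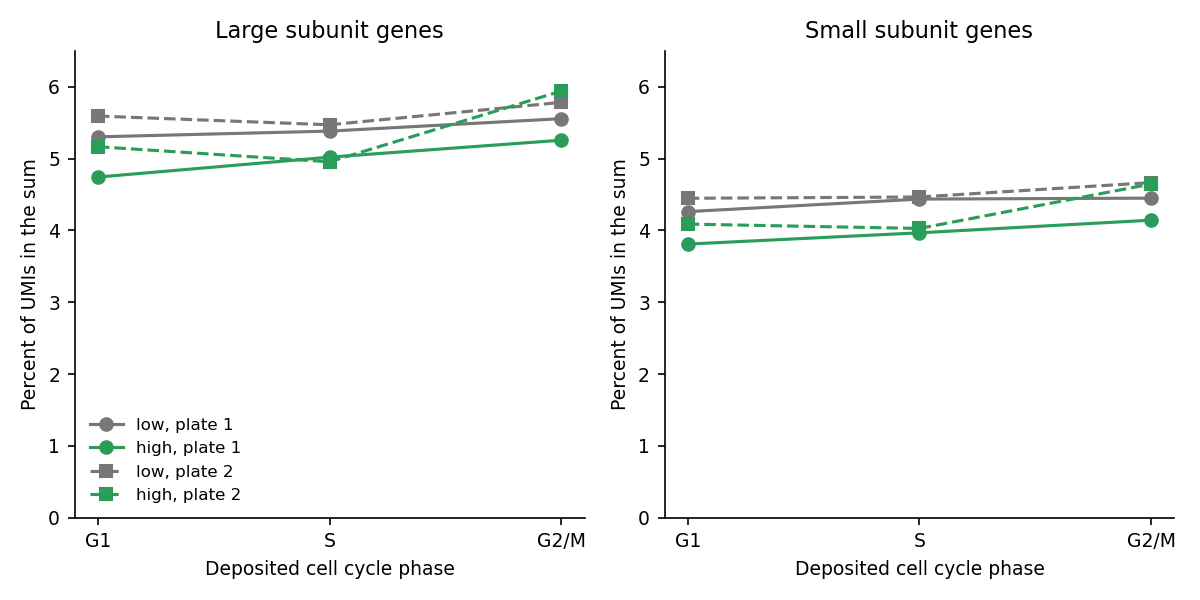
Percent of UMIs in large (left) and small (right) subunit genes in G1, S and G2/M cells, with 1 line for each plate and PLIN2-GFP category. The green lines of the high cells lie below the grey lines of the low cells of the same plate in G1 and S; in G2/M on plate 2 the large subunit share is 5.94% in high and 5.78% in low cells.

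Between phases the shares of ribosomal protein mRNAs differed by about as much as between categories for G2/M, and without a common direction on the plates for S. In the sums over both categories, large subunit genes made up 5.04%, 5.17% and 5.36% in G1, S and G2/M cells of plate 1, and 5.40%, 5.20% and 5.85% on plate 2. Small subunit genes made up 4.05%, 4.16% and 4.25% on plate 1, and 4.29%, 4.23% and 4.66% on plate 2. G2/M was the highest phase on both plates, while S lay above G1 on plate 1 and below it on plate 2 for both subunits. Depth also differed by phase, with a median of 8290 and 9825 UMIs in G1 cells of plates 1 and 2. The medians were 10994 and 15301 UMIs in S and 9565 and 12901.5 UMIs in G2/M cells. The part of depth was not tested. The log2 ratio of G2/M over G1 was 0.10 ± 0.02 for the large and 0.09 ± 0.04 for the small subunit, and of S over G1 -0.01 ± 0.06 and 0.01 ± 0.04 (SD, n = 2 plates). Median mitochondrial shares moved with the phase, with 14.04% and 13.8% in G1 and between 11.3% and 11.9% in S and G2/M cells over both plates, and so did lineage markers. Olig1 and Olig2 were called lower in S (log2 fold changes -0.32 ± 0.07 and -0.41 ± 0.09, SE) and in G2/M (-0.80 ± 0.07 and -0.55 ± 0.09), and Vim was called lower in G2/M (-0.29 ± 0.07). Their part in these values was not tested.

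The 2 contrasts of phase share the G1 sums and are given side by side. In S against G1, 73 of 83 members had a negative log2 fold change, with a median of -0.08 beside -0.03 over all 7650 genes tested. edgeR called 4 members lower, against 5.19% of all genes, and 0 higher, against 7.56%, with 11 lower and 1 higher at an unadjusted p under 0.05, against 10.2% and 11.9%. Leaving out the S sum of plate 1 gave 8 called lower, and leaving out the G1 sum of plate 2 or the S sum of plate 2 gave 1. DESeq2 called 0 in either direction, and limma voom 5 lower and 0 higher. Scaled by library totals alone, the median was 0.00 and 41 members were below 0, so the direction of this small shift depended on the scaling. In G2/M against G1, 64 members were above 0, with a median of 0.06 beside -0.01 over all genes. Of these, 3 were called higher, against 9.01% of all genes, and 1 lower, against 7.4%, while DESeq2 called 0 in either direction. Without the S sum of plate 1 or of plate 2, 7 or 6 were called higher, and without the G2/M sum of plate 2 0 were. In either contrast and direction the share of members called was below that of all genes.

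Rpl39, a small protein lining the exit tunnel, was the one member called in both contrasts, and G1 was its highest phase. Its level was 1343 and 1630 CPM in G1, 1100 and 1297 CPM in S, and 1152 and 1331 CPM in G2/M cells of plates 1 and 2. The log2 fold change was -0.31 ± 0.08 for S (SE, edgeR adjusted p = 0.0163) and -0.26 ± 0.08 for G2/M (SE, edgeR adjusted p = 0.0385). Rpl23a was lowest in S, at 772 and 821 CPM in G1 and 623 and 635 CPM in S (-0.35 ± 0.10, SE, edgeR adjusted p = 0.0281), and in G2/M its levels were 840 and 1020.1 CPM.

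The other genes called lower in S were Rpl35a and Rpl36, both of the large subunit. Rpl35a was at 1266 and 1671 CPM in G1 and at 1095 and 1354 CPM in S (-0.26 ± 0.08, SE, edgeR adjusted p = 0.0478), overlapping through the difference between plates. Rpl36 was at 201.7 and 180.2 CPM in G1 and at 147.4 and 121.8 CPM in S (-0.51 ± 0.17, SE, edgeR adjusted p = 0.0598).

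The genes called higher in G2/M were Rpl14, Rpl36al and Rpl18, all of the large subunit. Rpl14 rose from 771 and 967 CPM in G1 to 964 and 1329 CPM in G2/M (0.39 ± 0.10, SE, edgeR adjusted p = 0.00535). In S it was at 1001 and 1052 CPM. Rpl36al, the duplicate of Rpl36a, rose from 422.6 and 473 CPM to 534 and 579.9 CPM without overlap (0.31 ± 0.11, SE, edgeR adjusted p = 0.0618). Rpl18 was at 1757 and 2228 CPM in G1 and at 2102 and 2435 CPM in G2/M (0.19 ± 0.08, SE, edgeR adjusted p = 0.0999).

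Between phases, more of the factors that build ribosomes were called than of the proteins that make them up. Of 35 tested biogenesis factors, edgeR called 12 higher in S against G1 (34.3%) and 8 in G2/M against G1 (22.9%), where it called 7.56% and 9.01% of all genes higher. In both contrasts 0 were called lower, against 5.19% and 7.4% of all genes, and the list medians were 0.40 and 0.34. The nucleolar phosphoprotein Nolc1 rose in S from 58.99 and 36.9 CPM in G1 to 127.6 and 133.8 CPM (log2 fold change 1.42 ± 0.24, SE, edgeR adjusted p = 0.000138). Nop56, a core protein of the box C/D particles that methylate rRNA, had 0.99 ± 0.16 in S. Nucleolin (Ncl) was at 513 and 616 CPM in G1, 774 and 875.0 CPM in S and 775 and 928 CPM in G2/M. Its log2 fold changes were 0.55 ± 0.10 and 0.59 ± 0.10 (SE, edgeR adjusted p = 0.00039 and 7.05e-05). In G2/M, Ubtf, the activator of RNA polymerase I, had 0.90 ± 0.24, and Npm1 and Nhp2 had 0.38 ± 0.11 and 0.52 ± 0.15 (SE), all called.

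Between categories 17 biogenesis factors were below and 18 above 0, with a median of 0.01 in the fit and of -0.03 and -0.08 on plates 1 and 2. On both plates 14 were lower and 7 higher, and 5 were lower and 0 higher at an unadjusted p under 0.05. edgeR called 3 of them lower and 0 higher. Brix1, a factor of large subunit assembly, was at 44.7 and 41.3 CPM in low and 21.4 and 16.7 CPM in high (-1.16 ± 0.32, SE, edgeR adjusted p = 0.0248). Wdr12, of the PeBoW complex that matures the large subunit, was at 38.1 and 34 CPM in low and 14.6 and 19.3 CPM in high (-1.10 ± 0.34, SE, edgeR adjusted p = 0.073). Nop56 had -0.46 ± 0.15 (SE, edgeR adjusted p = 0.0856).

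Other mRNAs listed as having a 5′ TOP tract stood beside the members in the comparison of categories. Promoters were matched for 10 of the 17 listed, and 4 (40%) had a pyrimidine run near the annotated start, against 23% of all genes. A run of A and G was present in 30% of them, against 24.8% of all genes, so the scan did not show the tract for most of this list. Of 16 tested, 15 had a negative log2 fold change, with a median of -0.21. edgeR called 3 of the 16 lower and 0 higher, against 1.26% and 0.886% of all genes. The elongation factor Eef1a1 was at 7800 and 8053 CPM in low and 6326 and 6927 CPM in high (-0.26 ± 0.05, SE, edgeR adjusted p = 0.000566). Eef2 was at 1227 and 964 CPM in low and 941 and 850.2 CPM in high (-0.29 ± 0.08, SE, edgeR adjusted p = 0.0418), and Hnrnpa1 had -0.52 ± 0.14 (SE, edgeR adjusted p = 0.0284). In S this list had a median of -0.03, with Eef1a1 called lower, and in G2/M 0.00, with 3 called lower, among them Eef1a1 and Eif4b. Of all genes, 5.19% were called lower in S and 7.4% in G2/M.

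Of the genes that lead from mTOR to these mRNAs, 15 were tested between categories, and edgeR called 0 in either direction, against 1.26% lower and 0.886% higher of all genes. At an unadjusted p under 0.05, 1 was lower and 1 higher, against 5.82% and 5.17% of all genes. In S against G1, 14 were tested, and 2 were called lower and 1 higher, against 5.19% and 7.56% of all genes. In G2/M against G1, 0 of 14 were called lower and 2 higher, against 7.4% and 9.01%. Those lower in S were the mTOR inhibitors Ddit4 and Sesn2 (-2.08 ± 0.46 and -1.44 ± 0.40, SE). Both had low levels in S, at 15.4 and 5.15 CPM for Ddit4 and 15.4 and 15.4 CPM for Sesn2. Larp1, which binds the TOP tract and the cap, was called higher in S and in G2/M (0.74 ± 0.17 and 0.81 ± 0.16, SE). The cap-binding protein Eif4e was called higher in G2/M (0.36 ± 0.13, SE). Outside the members, the paralog Rpl7l1 was called higher in G2/M (0.48 ± 0.17, SE, edgeR adjusted p = 0.0572).

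Of the 15 mitochondrially encoded genes, edgeR called 7 lower in high than in low cells, 12 lower in S and 14 lower in G2/M than in G1. The shares of all genes called lower were 1.26%, 5.19% and 7.4%. With these and the rRNA genes left out, 8332 instead of 8348 genes were tested, with a median over the members of -0.17 and 10 members called lower. The fit is scaled over all genes by TMM, so leaving out so few genes could move this median only little. The part of the mitochondrial genes in the result was not tested.

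**Figure D5:**
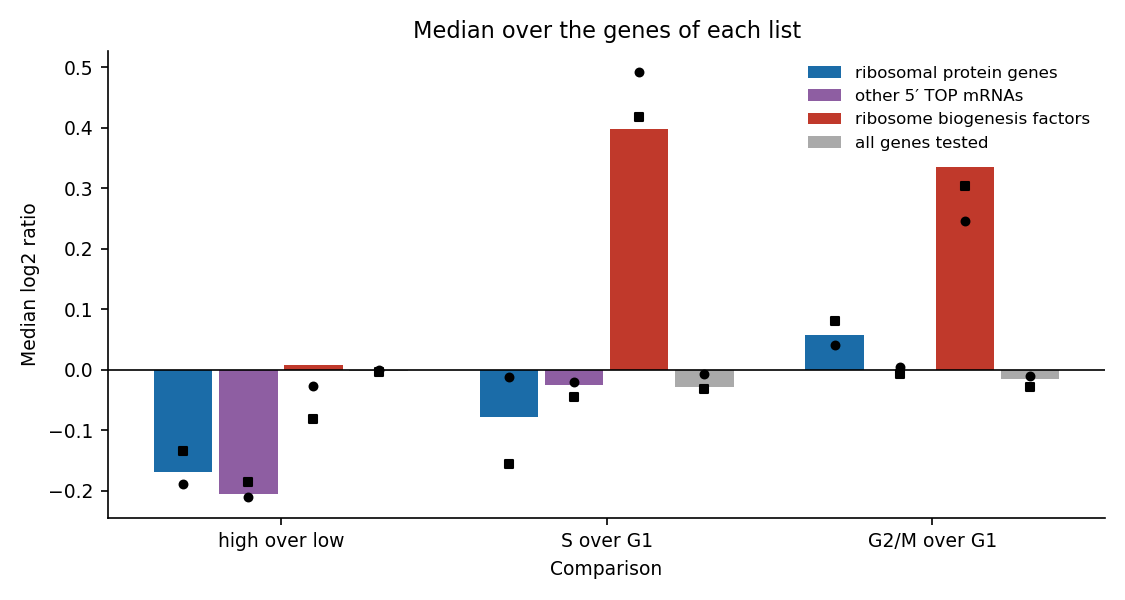
Median log2 ratio over the genes of each list (bars) in the comparisons of category and phase, with the median of plate 1 (black circles) and plate 2 (black squares). The ribosomal protein genes and the other TOP mRNAs lie at -0.17 and -0.21 between categories, where the biogenesis factors lie at 0.01, and the biogenesis factors lie at 0.40 and 0.34 in S and G2/M over G1, where the ribosomal protein genes lie at -0.08 and 0.06.

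The deposited clusters 0 and 1 were made from the genes of these same cells, so they are described without a test. Large subunit genes made up 4.77% of the UMIs in cluster 0 and 5.59% in cluster 1 on plate 1, and 5.08% and 5.92% on plate 2. Small subunit genes made up 3.81% and 4.48% on plate 1, and 4.04% and 4.79% on plate 2. Of the 83 members 80 were higher in cluster 1 on both plates and 0 were lower on both, where 24.9% of all 5438 genes compared were higher on both. Chosen after their values were seen, the widest gap was that of Rpl30, with log2 ratios of 0.78 and 0.50, and the narrowest that of Rpl27a, with 0.10 and -0.07.

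Within a cluster the categories were close to each other. In cluster 0 the large subunit share was 4.78% in low and 4.77% in high cells on plate 1, and 5.02% and 5.11% on plate 2. In cluster 1 it was 5.63% and 5.53% on plate 1, and 5.88% and 6.06% on plate 2. The high sum was thus lower on plate 1 and higher on plate 2 in both clusters. The high cells of plate 1 comprised 61 cells of cluster 0 and 23 of cluster 1, and the low cells 31 and 64. The median log2 fold change of the members between categories was -0.07 in cells of cluster 0, with 61 of 83 below 0, and -0.02 in cells of cluster 1, with 48 below 0. edgeR called 1 member lower in cluster 0, which was Rpl23a at -0.57, against 0.388% of all genes, and 0 in cluster 1, against 0.0762%, where Rpl23a had -0.21. At an unadjusted p under 0.05, 7 members were lower and 2 higher in cluster 0, and 1 lower and 0 higher in cluster 1. Of all genes, 3.26% were lower at this threshold in cluster 0 and 2.39% in cluster 1. Since the clusters were made from the expression of these cells, cluster and ribosomal protein level cannot be told apart here.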

How the data were processed

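SORT-seq, a CEL-Seq2 protocol read at the 3′ end with UMIs, was run on 2 plates. The authors quantified reads with Salmon/alevin against GRCm38 (versions and annotation release not given in the sources used here) and deposited estimated counts per gene and cell, which need not be whole. They kept 304 cells by mitochondrial share and doublet detection, although 11 deposited cells exceed 20%. The deposited per-cell table holds UMI totals, counts of genes detected, the percent of mitochondrial and ribosomal counts, cell cycle scores as a score per phase, and the phase and cluster. Columns were joined to its cells by equal UMI total (within 0.05) and number of genes; 0 were left unjoined. No deposited fraction or fold change was used, and doublets were not called again. The deposited ribosomal percentage exceeded the one computed here by 0.419 to 1.58 points.

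Counts were summed per plate and category (4 sums), or per plate and phase (6 sums), and rounded. edgeR 4.0.16 (R 4.3.3; TMM, filterByExpr, quasi-likelihood test, Benjamini-Hochberg, called under 0.1, as the study's threshold) was fitted to all genes with the plate as a block, since each plate held both categories; same-plate deviations correlated at 0.300 over 8348 genes. The fit of categories leaves 1 residual degree of freedom, so its error borrows from the spread across genes. DESeq2 1.42.0, limma 3.58.1 voom, other scalings, filters, thinning and left-out sums were alternatives. The tests were run on simulated data first. Subunit shares carry no p. Gene positions are from GENCODE M21 and start sites from RefSeq. Named genes are the called members, those with the highest and lowest 5 UMI totals, paralogs with parents, and a fixed list of ribosomal proteins; of other lists up to 4 called genes. The members, lists and rule were chosen with earlier results of these data known. The tests within S, within G2/M and within clusters and the interaction test were added after the data were seen. Some results under the naming rule are not reported here.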

Additional observations from a re-analysis of the deposited data

How the results depend on the processing

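The median difference between PLIN2-GFP high and low cells kept its sign in every fit, but it was small within the deposited clusters. The median over the members stayed between -0.21 and -0.02 in the 21 fits of that comparison, and between 48 and 83 members were below 0. It was -0.07 in cells of cluster 0 and -0.02 in cells of cluster 1, with 61 and 48 of 83 members below 0. The number called lower was 7 in the main fit. It was 0 with no replicate block, 1 with DESeq2 (which gave an adjusted p to 418 genes only), 13 with limma voom, 4 with library size only, 1 with cells thinned to 5000 UMIs, and 4 at an adjusted p under 0.05. It was 0 in G1 cells, 3 in S cells, 2 in G2/M cells, 1 in cells of cluster 0 and 0 in cells of cluster 1, and 0 whichever of the 4 sums was left out, a fit that has no plate block. In S against G1, 4 were called lower, with 0 without the plate block, 0 with DESeq2, 2 with library size only and from 1 to 8 with a sum left out. The number called higher in S was 0, with 2 with library size only, 1 with RLE size factors, with a sum of at least 100, with cells under 20% mitochondrial share and with category as a term in 12 sums, and 0 to 1 with a sum left out. In G2/M against G1, 3 were called higher, with 0 without the plate block, 0 with DESeq2, 8 with library size only, 1 at an adjusted p under 0.05, 5 with category as a term in 12 sums and 0 to 7 with a sum left out. Of the members 1 was called lower, with 0 without the block, 0 with DESeq2 and 0 to 1 with a sum left out. The restricted fits also held fewer cells or sums, and the causes of these changes were not tested.

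The log2 ratio of shares, high over low, was -0.091 for the large and -0.112 for the small subunit. It was -0.051 and -0.044 after thinning, -0.123 and -0.144 without mitochondrial and rRNA genes, -0.138 and -0.142 within G1, -0.122 and -0.155 within S, -0.021 and -0.055 within G2/M, 0.011 and -0.0064 within cluster 0 and 0.0098 and -0.0049 within cluster 1, so the large subunit changed sign within clusters. S over G1 had no stable sign. The large subunit ratio was -0.010, with 0.00038 as a mean over cells, 0.011 within high cells and from -0.055 to 0.035 with a plate left out. The small subunit ratio was 0.0094, with -0.027 without mitochondrial and rRNA genes, -0.0014 without paralogs and mostly split members, and from -0.018 to 0.036 with a plate left out. G2/M over G1 stayed positive. The large subunit ratio, 0.101, was 0.063 as a mean over cells, 0.059 without mitochondrial and rRNA genes, 0.079 without paralogs and split members, 0.058 within low and 0.175 within high cells. The small subunit ratio, 0.093, was 0.050, 0.051 and, within high cells, 0.153. Cluster 1 over 0 stayed positive, at 0.224 and 0.240. For the large subunit it was 0.216 as a mean over cells, 0.185 after thinning, 0.242 without mitochondrial and rRNA genes, 0.231 within low cells, and 0.300, 0.119 and 0.218 within G1, S and G2/M. For the small subunit it was 0.203 after thinning, 0.258 without mitochondrial and rRNA genes, 0.227 without split members, and 0.313 and 0.143 within G1 and S.

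Of the called genes, Rps26 had 0.049 in cells of cluster 1 and Rps23 0.12 in G2/M cells. Of the others, Rpl22l1 had 0.0066 with library size only and 0.095 after thinning, Rpl36al 0.032 and 0.043, Rpl5 0.014 with library size only, and Rps27 0.17 and Rpsa 0.0021 after thinning. With a sum left out the log2 fold changes ran from -0.25 to 0.12 for Rpl22l1, -0.41 to 0.0040 for Rps6, -0.13 to 0.032 for Rpl5, -0.04 to 0.15 for Rps27l, -0.21 to 0.0094 for Rpsa, -0.42 to 0.039 for Rplp1, -0.16 to 0.090 for Rpl36al and -0.29 to 0.077 for Rpl36a. With 2 plates of 1 line, differences of the size seen for most single members are not detectable one by one, and no value here separates less ribosomal protein mRNA from more of other mRNA.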
